A study of Mus musculus with 5 samples.

Results

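The genes described here are 10 members of the epidermal growth factor (EGF) system, the ligands Hbegf, Areg, Ereg, Btc, Egf, Tgfa, Epgn and Nrg1 and the receptors Egfr and Erbb2. They were taken by gene symbol from a table of 28666 genes, in which all 10 were listed, and 8 of the 10 had enough reads to be tested. The values come from RNA sequencing of whole uterus of 5 ICR female mice aged 6 to 8 weeks, each a pseudopregnant female mated with a vasectomized C57BL/6 male. The aged-SP group, exposed to seminal plasma (SP) of males of 12 to 18 months, had 2 uteri (replicates 1 and 4), and the young-SP group, exposed to SP of males of 12 to 14 weeks, had 3 uteri (replicates 1, 2 and 4). The labels place collection at 3.5 days after caging and the study's methods at 3.0 days post coitum, before any embryo was transferred, so no uterus held embryos. The labels name no genetic change and no other agent for any female, and unmated females were not analysed here. The comparison addresses whether the age of the male whose SP reached the uterus was accompanied by a different uterine transcript level of these ligands and receptors.

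EGF-like ligands are made as membrane-anchored precursors, and metalloproteases of the ADAM family cut them free so that they can bind ErbB receptors on the same or neighbouring cells. Binding pairs the receptors, which then phosphorylate each other and switch on the Ras to MAP kinase and the PI3 kinase routes. Egfr binds most of the ligands, Erbb2 has no ligand of its own and acts as a partner, and Erbb3 and Erbb4 bind the neuregulins. In the mouse uterus the family is known for its place in the dialogue with the blastocyst: amphiregulin (Areg) is a progesterone-responsive product of the epithelium before attachment, and heparin-binding EGF (Hbegf) appears in the luminal epithelium beside the blastocyst.

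Areg and Egfr were the ligand and the receptor with the lowest unadjusted p of their kind, and the 250 bases before their annotated starts are shown so that their letters can be read beside the values. The sequences are from RefSeq on GRCm38.p6, which held an entry for 7 of the 10 members, and both genes lie on the plus strand. The Areg stretch is chr5:91139349-91139598 and the Egfr stretch is chr11:16751953-16752202, each ending at the base before the start. Capitals mark 3 motifs, each searched on both strands. GGGCGG is the GC box to which Sp factors bind. The cyclic AMP response element (CRE) was searched as TGACGTCA. The core promoter box named after its first letters was searched as TATAAA and is called the TATA box here.
Areg: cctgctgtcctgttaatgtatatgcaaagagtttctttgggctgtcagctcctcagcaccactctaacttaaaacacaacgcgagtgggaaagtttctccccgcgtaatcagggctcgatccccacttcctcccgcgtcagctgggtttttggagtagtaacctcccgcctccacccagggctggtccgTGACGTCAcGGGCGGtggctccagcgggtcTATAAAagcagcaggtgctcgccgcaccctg
Egfr: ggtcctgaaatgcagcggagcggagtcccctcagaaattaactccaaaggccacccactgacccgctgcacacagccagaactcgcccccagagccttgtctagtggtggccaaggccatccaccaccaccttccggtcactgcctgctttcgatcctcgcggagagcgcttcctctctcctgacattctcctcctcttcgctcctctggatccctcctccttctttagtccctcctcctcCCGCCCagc

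The Areg stretch held 1 copy of each of the 3 motifs, with the CRE starting at position -61, the GC box at -52 and the TATA box at -31 from the start, none overlapping another. No CRE and no TATA box was found in the 250 bases before Egfr, where the reverse of 1 GC box began at -9. Among 32851 mouse promoters of the same length, 1.55% held the CRE letters, 12.4% the TATA box letters and 32.7% the GC box letters. Of the other members with an entry, Epgn had 1 TATA box at -86 and Tgfa had 2 GC boxes, and none of the 3 motifs was found in the stretches of Btc, Egf and Erbb2. These matches are descriptions of letters and were not tested as binding sites.

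The libraries held between 15071914 and 16728601 counted reads. Young-SP replicate 1 stood apart from replicates 2 and 4 of its group: the summed level of the uterine gland list was 505 CPM (reads per 1000000 counted reads) in it, against 50.7 and 40.5 in replicates 2 and 4 and 4066 and 2923 in aged-SP replicates 1 and 4. Prss29, a secreted serine protease and the most abundant gene of that list, had 6156 counts in young-SP replicate 1, 50 and 173 in replicates 2 and 4, and 40664 and 33412 in the aged-SP uteri. For members and named pathway genes with a printed log2 fold change, the value without young-SP replicate 1 is also given where it changed a call or moved that fold change by over 1.5 times. Markers of smooth muscle (9071 to 14246 CPM summed) and stroma (6444 to 11223) were high in all 5 libraries, as a uterus has them, with 1034 to 2058 CPM for epithelium, 495 to 808 for endothelium and 586 to 1060 for leukocytes. Lists for neighbouring tissues reached 172 to 394 CPM for oviduct, 90.4 to 263 for skeletal muscle, 22.0 to 70.9 for ovary, 1.92 to 4.89 for vagina and cervix and 0 to 1.80 for adipose tissue. Much of the first 2 sums came from their most abundant genes, Wt1 (101 to 127 CPM) for oviduct and Acta1 (66.0 to 233 CPM) for skeletal muscle. Whether neighbouring tissue was present was not tested. Among the 67 tested genes of all these cell type lists edgeR called 0, with 13 at an unadjusted p under 0.05 (19% of all tested genes). DESeq2 called 4 of their genes and 3.6% of all genes it tested.

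Compared per length, as FPKM (fragments per 1000 bases of gene and 1000000 counted reads), the receptors were the most abundant members and the ligands were spread over a wide range of levels. Egfr averaged 11.1 FPKM over the 5 libraries (6.53 to 15.0) and Erbb2 averaged 8.75 FPKM (7.65 to 9.65), so the 2 receptors overlapped. Erbb2 stood 3.10 times above the next member, Hbegf, with no overlap between their ranges. Hbegf (mean 2.82 FPKM, 2.27 to 3.75) and Tgfa (2.25, 1.45 to 2.77), the genes of heparin-binding EGF and of transforming growth factor alpha, led the ligands by their mean over the 5 libraries and overlapped each other. The deposited FPKM of Hbegf used a length of 2373 bases, against 4834 exon bases in the GENCODE M21 annotation. Its place, its distance to Erbb2 and its share of the ligands depend on that length. In CPM, Tgfa was above Hbegf in each uterus.

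Areg had the fifth place by its mean of 0.821 FPKM, but its values ran from 0 to 2.51 FPKM, which overlapped Hbegf and Tgfa above it and Btc (betacellulin) below it. In young-SP replicate 4 it was the highest ligand, at 2.51 FPKM against 2.27 for Hbegf and 1.45 for Tgfa. Btc averaged 0.632 FPKM (0.361 to 1.03) and overlapped Nrg1 (neuregulin 1, 0.380 FPKM, 0.245 to 0.705). Egf, the founding ligand, lay apart from Nrg1 at 0.120 FPKM (0.0742 to 0.182). Epgn (epigen, at most 0.0668 FPKM) and Ereg (epiregulin, at most 0.0293 FPKM) were at the limit of detection. These places are descriptions, with no test.

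**Figure D1:**
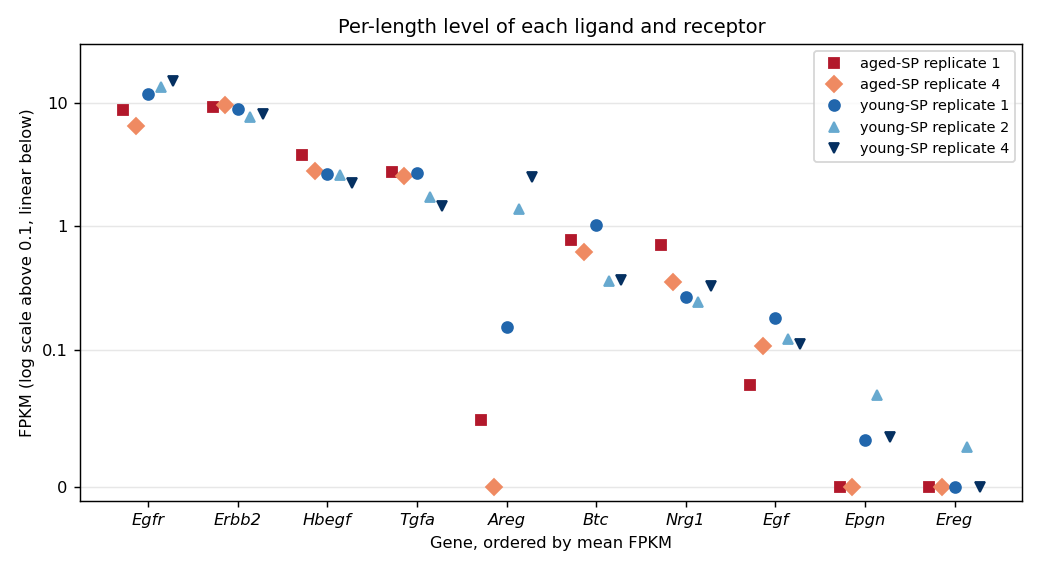
Per-length level (FPKM, vertical axis, logarithmic above 0.1 and linear below it) of the 10 genes, ordered by mean; each point is 1 uterus, squares and diamonds aged-SP, the other symbols young-SP. Egfr and Erbb2 lie above every ligand in each uterus, and Areg spans 0 to 2.51 FPKM, with young-SP replicates 2 and 4 on top.

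The summed FPKM of the 8 ligands varied little, from 6.45 to 8.13, while its makeup differed between uteri. The sum was 7.29 ± 1.19 (SD, n = 2) for the aged-SP uteri and 6.89 ± 0.28 (SD, n = 3) for the young-SP uteri, with p = 0.8 in a two-sided exact permutation test whose smallest possible p was 0.2. Hbegf and Tgfa together made up 80.2% and 83.3% of it in aged-SP replicates 1 and 4, and 76.3%, 66.3% and 52.6% in young-SP replicates 1, 2 and 4 (p = 0.2, two-sided exact permutation test, the smallest it allows). Areg made up 0.605% and 0% in the aged-SP uteri and 2.18%, 21.2% and 35.5% in the young-SP uteri, in the same order. Young-SP replicate 1 thus lay nearer to the aged-SP uteri than to the rest of its group in both shares. These 2 shares and the ligand sum were chosen after their values had been seen, and they depend on the deposited length of Hbegf.

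Between the groups, 0 of the 8 tested members were called by edgeR at an adjusted p under 0.05 and a change of more than 2-fold, the same rule by which 0.147% of the 17013 tested genes (25 genes) were called. At an unadjusted p under 0.05 there were 3 members, Areg and Egfr lower and Nrg1 higher in the aged-SP group, where the background was 19% of all tested genes. DESeq2 called 1 member, Areg, and 3.6% of the genes it tested, and limma-voom called 0 members and 0.159% of its genes. The values of the groups did not overlap for 6 of the 8 tested members, with Hbegf, Nrg1 and Erbb2 higher and Areg, Egf and Egfr lower in aged-SP uteri; such a separation was seen for 38.8% of all tested genes. Without young-SP replicate 1 the groups were apart for 8 of 8 members and for 55.7% of all genes. The median log2 fold change (aged-SP over young-SP) was 0.24 over the 8 tested members and 0.01 over all tested genes. Areg passed the filter on low counts only through the young-SP group, and Ereg and Epgn did not pass it.

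**Figure D2:**
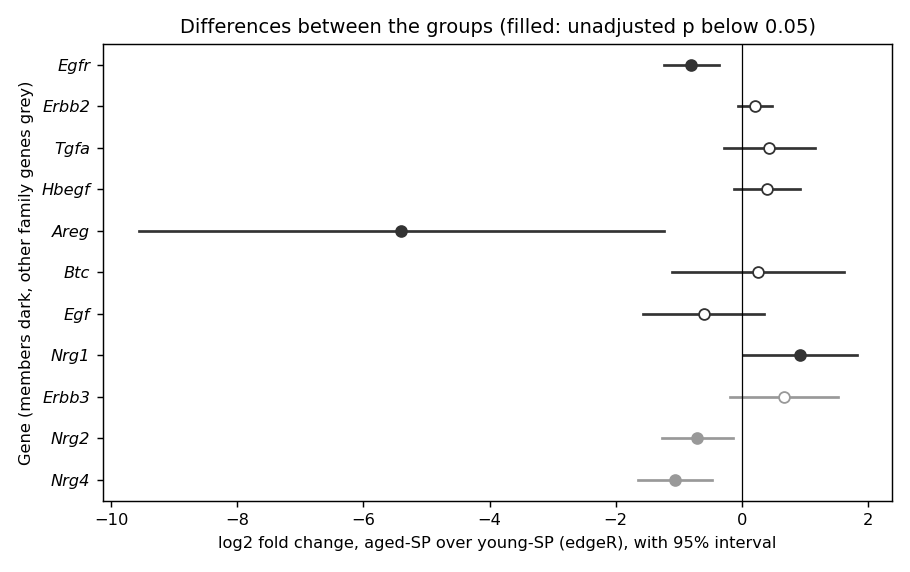
Log2 fold change of the aged-SP over the young-SP group from edgeR, with its 95% interval, for the 8 tested members (dark) and for Erbb3, Nrg2 and Nrg4 (grey); filled points have an unadjusted p under 0.05. The Areg interval runs from -9.57 to -1.23, and those of Egfr (-1.23 to -0.36), Nrg2 and Nrg4 also lie below 0.

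Areg was nearly silent in both aged-SP uteri and reached 1.65 and 3.07 CPM in 2 of the 3 young-SP uteri. The reads numbered 1 and 0 in aged-SP replicates 1 and 4, and 3, 28 and 46 in young-SP replicates 1, 2 and 4. The groups did not overlap, but young-SP replicate 1 with its 3 reads was close to the aged-SP uteri and well below the rest of its own group. In CPM the young-SP group averaged 1.64 ± 1.44 (SD, n = 3) and the aged-SP group 0.0302 ± 0.0427 (SD, n = 2). In a bulk sample, fewer cells that express a gene and less RNA per cell cannot be told apart.

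Pooled over each group, the 1 read of the aged-SP uteri against the 77 reads of the young-SP uteri gave a level 51.7 times lower in the aged-SP group, with an exact 95% interval of 9.01 to 2070 times that covers counting error only. Against young-SP replicates 2 and 4 alone the ratio was 74.7 (interval 13.0 to 2988), and against young-SP replicate 1 alone it was 6.04 with an interval of 0.485 to 317, which includes no difference. With both aged-SP libraries set to the floor of 3 counts, the young-SP mean was still 8.78 times the aged-SP level. The fitted log2 fold change was -5.40 ± 1.67 (SE), a value that depends on the count added to avoid zeros, and the adjusted p was 0.185 (edgeR, Benjamini-Hochberg). It was 0.0312 by DESeq2 and 0.0337 by edgeR without young-SP replicate 1 (where 3.45% of all genes were called), and over all alternatives in which the gene was tested it ranged from 0.0312 to 0.438. Without young-SP replicate 2 or 4, Areg did not pass the filter on low counts and had no test. Areg passed that filter only through the young-SP group, where it was higher, so its test is no independent sign of a difference.

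The level of Areg was high in the 2 uteri where the gland list had its lowest sums, an order set by Prss28 and Prss29. Cxcl15 and Ttr went the other way, higher in every young-SP uterus than in either aged-SP uterus. The 6 listed gland genes did not move as a block: 3 had higher and 3 had lower aged-SP levels. At an unadjusted p under 0.05, 1 was higher and 2 were lower, against 9.62% and 9.36% of all tested genes. The summed level of 2923 to 4066 CPM in the aged-SP uteri came mostly from Prss29. The part of the gland genes in the Areg result was not tested.

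**Figure D3:**
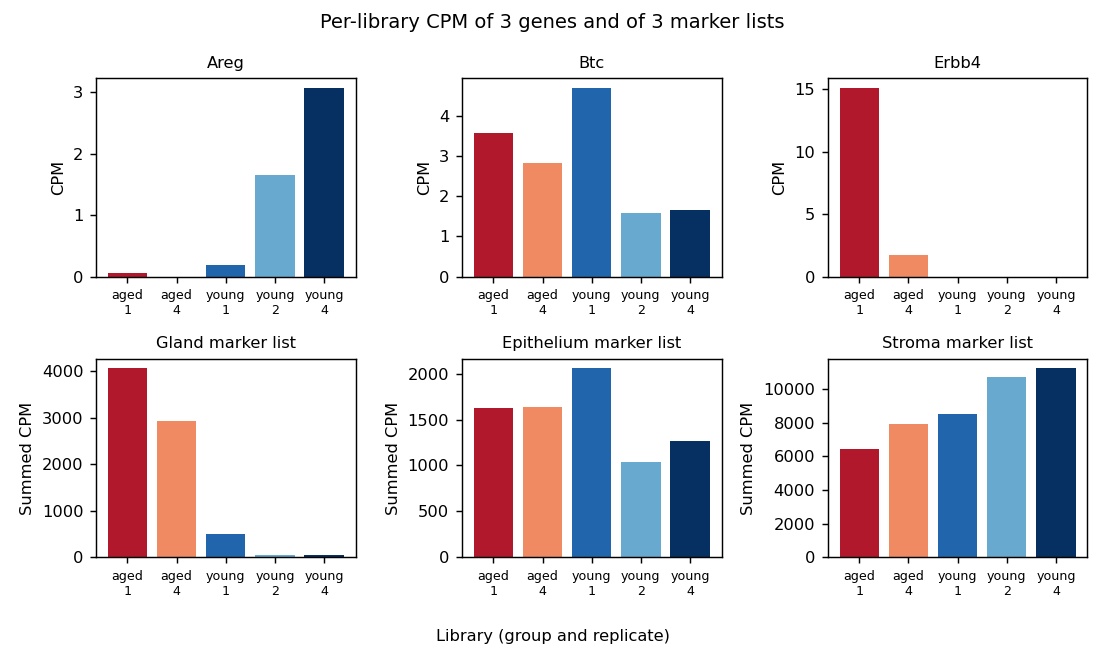
Upper row, CPM of Areg, Btc and Erbb4 in each uterus; lower row, summed CPM of the marker lists for gland, epithelium and stroma in the same uteri (bars start at 0, aged-SP in reds, young-SP in blues). Young-SP replicate 1 has 0.187 CPM of Areg and 505 CPM of gland markers, between the aged-SP uteri and young-SP replicates 2 and 4 in both panels.

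Areg (chr5:91139599-91148432, GRCm38) lies in a cluster of 376 kb with Epgn, Ereg and Btc on the same chromosome. Ereg had 2 reads in young-SP replicate 2 and 0 in the other 4 uteri. Epgn had 1, 2 and 1 reads in young-SP replicates 1, 2 and 4 and 0 in both aged-SP uteri. Both groups were at or under 3 counts per library (0.177 to 0.200 CPM) for these genes, so no fold change is given and a difference was not detectable at this depth.

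Egfr, the receptor for most of these ligands (chr11:16752203-16918158), was lower in both aged-SP uteri than in any young-SP uterus. It had 99.7 and 74.0 CPM in aged-SP replicates 1 and 4, and 133, 149 and 170 CPM in young-SP replicates 1, 2 and 4. The groups did not overlap, and young-SP replicate 1 was the lowest of its group. The log2 fold change was -0.80 ± 0.17 (SE), or 1.74 times lower, with an adjusted p of 0.114 (edgeR), and it stayed between -1.03 and -0.60 when each library was left out in turn. The adjusted p was 0.00342 by DESeq2, where the change was again -0.80 and therefore under the 2-fold limit, and it ranged up to 0.281 over the alternatives.

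The stromal marker list also had lower sums in the aged-SP uteri, at 6444 and 7912 CPM against 8495, 10696 and 11223 CPM in the young-SP uteri. Of its 10 genes 8 had a negative log2 fold change, 4 of them at an unadjusted p under 0.05 (9.36% of all tested genes), and 1 gene was higher at that limit (9.62% of all tested genes), the pericyte and stromal receptor gene Pdgfrb (0.34, adjusted p = 0.227, edgeR). Col1a1, a fibrillar collagen gene and the most abundant of the list, had a log2 fold change of -0.90 (adjusted p = 0.0734, edgeR). Its levels were 2409 and 2865 CPM in the aged-SP uteri and 4376, 5186 and 5226 CPM in the young-SP uteri. Without Col1a1 the list sums of the groups overlap. Dcn, the next most abundant gene of the list, overlapped between the groups (log2 fold change 0.07, adjusted p = 0.881, edgeR). The part of the stromal genes in the Egfr values was not tested.

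Erbb2, the receptor without a ligand of its own (chr11:98412470-98437716), varied least of the members. Its CPM was 49.1 and 50.3 in the aged-SP group and 46.9, 39.0 and 42.9 in young-SP replicates 1, 2 and 4. The aged-SP uteri were above the others by a small margin (log2 fold change 0.21 ± 0.11, adjusted p = 0.350, edgeR, with an interval of -0.06 to 0.48). The order of the 2 receptors was not the same in the 2 groups: the ratio of Egfr to Erbb2 in FPKM was 0.933 and 0.677 in the aged-SP group and 1.31, 1.76 and 1.83 in young-SP replicates 1, 2 and 4. This ratio, chosen after its values had been seen, averaged 0.805 ± 0.181 (SD, n = 2) and 1.63 ± 0.28 (SD, n = 3), with p = 0.2 in a two-sided exact permutation test, the smallest p that 10 splits of 2 against 3 uteri allow. A ratio within a library shows unequal change of the 2 genes and not which of them changed.

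The 2 leading ligands did not pass the test. Hbegf (chr18:36504929-36515805) had 8.99 and 6.71 CPM in the aged-SP uteri and 6.31, 6.08 and 5.40 CPM in young-SP replicates 1, 2 and 4. The groups were narrowly apart, and aged-SP replicate 1 was the highest. The log2 fold change was 0.40 ± 0.21 (SE, adjusted p = 0.366, edgeR), with a 95% interval from -0.13 to 0.93, and it was 0.18 without aged-SP replicate 1.

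Tgfa (chr6:86195223-86275719) and Btc (chr5:91357261-91402994) split the young-SP group in the same way. Tgfa had 18.2 and 16.5 CPM in the aged-SP uteri, and 17.8, 11.0 and 9.47 CPM in young-SP replicates 1, 2 and 4. Btc had 3.56 and 2.81 CPM in the aged-SP uteri, and 4.69, 1.59 and 1.67 CPM in the young-SP uteri. For both ligands young-SP replicate 1 lay with or above the aged-SP uteri, so the groups overlapped. The log2 fold changes were 0.44 ± 0.29 for Tgfa (adjusted p = 0.457) and 0.27 ± 0.55 for Btc (adjusted p = 0.829, edgeR).

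Without young-SP replicate 1 the log2 fold changes of Tgfa and Btc were 0.75 (adjusted p = 0.0836, edgeR) and 0.95 (adjusted p = 0.153), and over all alternatives the adjusted p lay between 0.0836 and 0.748 for Tgfa and between 0.153 and 0.9997 for Btc. The epithelial list had 1631 and 1637 CPM in the aged-SP uteri and 2058, 1034 and 1265 CPM in young-SP replicates 1, 2 and 4, so young-SP replicate 1 was the highest there too. Of its 12 genes 8 had a positive and 4 a negative log2 fold change. At an unadjusted p under 0.05, 1 was higher and 1 was lower, against 9.62% and 9.36% of all tested genes. Krt8, an epithelial keratin and the most abundant gene of the list, ran from 202 to 400 CPM. The part of the epithelial genes in the Tgfa and Btc values was not tested.

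Nrg1, a ligand of Erbb3 and Erbb4 (chr8:31814551-32884029), had its highest value in aged-SP replicate 1. It had 7.37 and 3.64 CPM in the aged-SP uteri and 2.81, 2.48 and 3.40 CPM in young-SP replicates 1, 2 and 4. The groups were apart, but aged-SP replicate 4 lay just above young-SP replicate 4. The log2 fold change was 0.93 ± 0.36 (adjusted p = 0.253, edgeR). It fell to 0.33 without aged-SP replicate 1 and was 1.35 without aged-SP replicate 4, so that uterus decided its size.

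Among members with a mean of at least 50 counts, Nrg1 had the widest range over the 5 uteri, 1.52 on the log2 CPM scale. Of 13433 other genes with such counts, the closest to its profile were Fam174b, Stx11 and Relb, with root mean square differences of 0.0778, 0.121 and 0.133 in centred log2 CPM over the 5 libraries. This likeness is a description over 5 points that share their libraries.

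Egf (chr3:129677565-129755316) had few reads, 14 and 19 in the aged-SP uteri and 33, 23 and 19 in the young-SP uteri. As CPM, the aged-SP values of 0.845 and 1.21 lay just under the lowest young-SP value of 1.27. The log2 fold change of -0.60 ± 0.39 did not pass the test (adjusted p = 0.446, edgeR), and its interval ran from -1.56 to 0.36. Without young-SP replicate 1 it was -0.36 (adjusted p = 0.622, edgeR). The kit of these libraries is not stated to keep the strand, and 9.82% of the exon bases of Egf overlap genes on the opposite strand in GENCODE M21, as do 4.66% of those of Nrg1, 3.42% of Ereg, 1.82% of Tgfa and 0.173% of Erbb2.

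**Figure D4:**
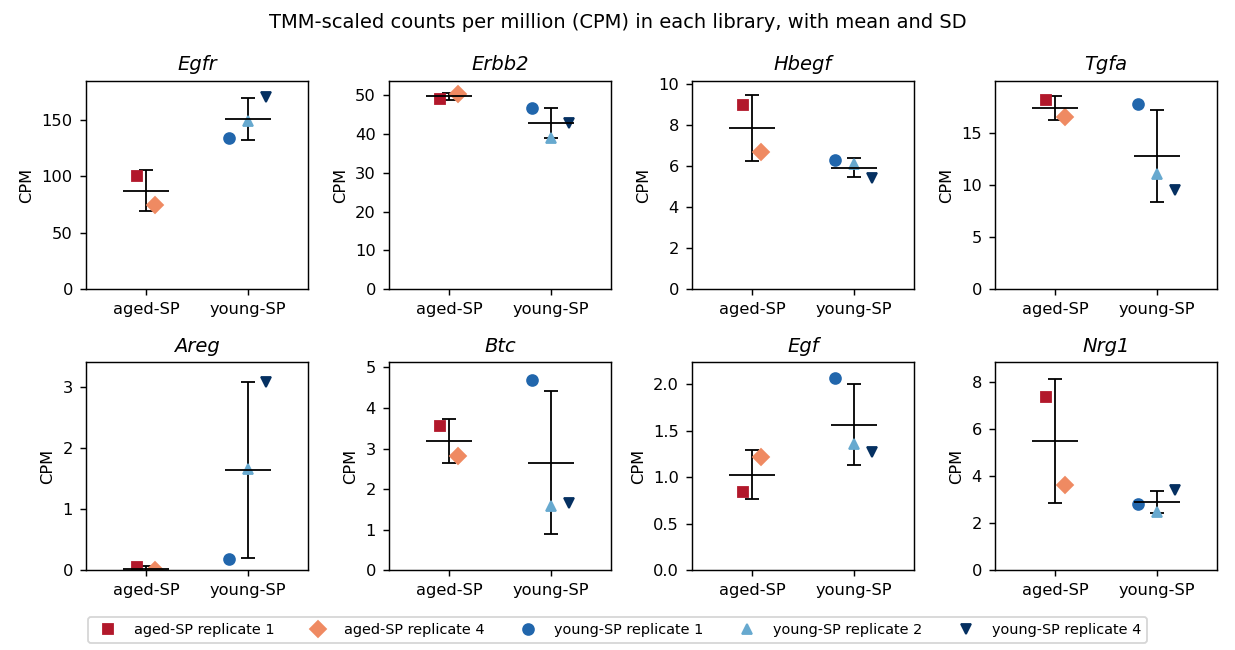
CPM of the 8 tested members, 1 panel each with its own linear axis from 0; points are uteri, black lines the group mean and bars the SD (n = 2 aged-SP, n = 3 young-SP). Egfr separates the groups (74.0 to 99.7 against 133 to 170 CPM), while Tgfa and Btc place young-SP replicate 1 with the aged-SP uteri.

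The 4 other listed family genes included the most uneven one of the system. Erbb4, a neuregulin receptor (chr1:68032186-69108059), had 250 reads in aged-SP replicate 1 and 27 in aged-SP replicate 4, and 0 in each young-SP uterus. The aged-SP uteri differed widely from each other, at 15.1 and 1.73 CPM. Against a floor of 3 counts per library in the young-SP group, the aged-SP mean was at least 44.7-fold higher, and the bound was at least 9.17-fold without aged-SP replicate 1 and at least 80.2-fold without aged-SP replicate 4. Erbb4 passed the filter on low counts only through the aged-SP group, so its test is no independent sign of a difference. The adjusted p was 0.143 by edgeR and 0.0165 by DESeq2, with a range of 0.0165 to 0.286 over the alternatives. In this gene, unlike in Areg, young-SP replicate 1 was at 0 as were the other 2 young-SP uteri.

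Erbb3, the other neuregulin receptor, had 76.3 and 49.4 CPM in the aged-SP uteri and 57.0, 29.1 and 32.4 CPM in young-SP replicates 1, 2 and 4. Its groups overlapped, with young-SP replicate 1 above aged-SP replicate 4 (log2 fold change 0.67 ± 0.34, adjusted p = 0.358, edgeR). Without young-SP replicate 1 the log2 fold change was 1.02 (adjusted p = 0.0796, edgeR), in a range of 0.0796 to 0.791 over the alternatives. Per length, Erbb3 ran from 4.95 to 12.6 FPKM, against 7.65 to 9.65 FPKM for Erbb2 and 0 to 1.21 FPKM for Erbb4.

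The other neuregulin genes had log2 fold changes of the opposite sign to that of Nrg1. Nrg4 had 5.49 and 5.30 CPM in the aged-SP uteri and 8.62, 12.4 and 12.6 CPM in the young-SP uteri. Nrg2 had 3.80 and 5.30 CPM against 7.12, 7.09 and 8.00 CPM. In both genes every aged-SP uterus was below every young-SP uterus. The log2 fold changes were -1.05 ± 0.23 for Nrg4 (adjusted p = 0.115, edgeR) and -0.70 ± 0.23 for Nrg2 (adjusted p = 0.200). For Nrg4 the adjusted p was 0.00808 by DESeq2 and 0.0351 by edgeR without young-SP replicate 1, and it ranged from 0.00808 to 0.350 over the alternatives.

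In the lists of the rest of the pathway, which with these 4 genes held 68 listed genes, all tested, edgeR called 0 genes. At an unadjusted p under 0.05 there were 14, 10 with a positive and 4 with a negative log2 fold change, against 9.62% and 9.36% of all tested genes. DESeq2 called 4, namely Erbb4 and Ier3 higher and Nrg4 and Adam12 lower, where it called 3.6% of all genes it tested, and limma-voom called 0. The groups were apart for 32 of the 68, with 21 higher and 11 lower (38.8% of all tested genes, 19.5% higher and 19.3% lower), and the median log2 fold change was 0.11 against 0.01 over all tested genes.

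Of the 10 genes of ligand shedding, 6 had a positive and 4 a negative log2 fold change, with a median of 0.11. Over all 17013 tested genes, 8663 had a positive one. At an unadjusted p under 0.05, 2 of the 10 were higher and 2 were lower, against 9.62% and 9.36% of all tested genes. The lower ones were Adam12 and Nrd1 (-0.32, adjusted p = 0.256, edgeR). The sheddases Adam10 and Adam17 had 177 to 192 and 88.7 to 110 CPM over all 5 uteri. Adam12, a metalloprotease able to shed Hbegf, had 20.0 and 27.6 CPM in the aged-SP uteri, and 81.7, 149 and 115 CPM in young-SP replicates 1, 2 and 4. Both aged-SP uteri lay far below the lowest young-SP uterus, but Adam12 was not called in the edgeR fit (log2 fold change -2.28 ± 0.31, adjusted p = 0.0734). Its adjusted p was 1.27e-11 by DESeq2 and 0.0150 by edgeR without young-SP replicate 1, in a range of 1.27e-11 to 0.263 over the alternatives. Rhbdf1 and Rhbdf2, the inactive rhomboids that guide Adam17 to the cell surface, had log2 fold changes of 0.42 (adjusted p = 0.154) and 0.71 (adjusted p = 0.184, edgeR).

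Of 16 feedback genes, 13 had a positive and 3 a negative log2 fold change, with a median of 0.21. Over all 17013 tested genes, 8663 had a positive one. At an unadjusted p under 0.05, 2 of the 16 were higher, against 9.62% of all tested genes. They were Spry1 (0.73, adjusted p = 0.196) and Spred1 (0.32, adjusted p = 0.261, edgeR). Both encode inhibitors of the Ras route. Errfi1, which encodes a direct inhibitor of Egfr and was the most abundant gene of the pathway lists, had 473 and 738 CPM in the aged-SP uteri and 336, 174 and 447 CPM in the young-SP uteri (log2 fold change 0.93 ± 0.41, adjusted p = 0.302, edgeR).

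Of the 22 adaptors and kinases, 14 had a positive and 8 a negative log2 fold change, with a median of 0.04. Over all 17013 tested genes, 8663 had a positive one. At an unadjusted p under 0.05, 3 of the 22 were higher, against 9.62% of all tested genes. Gab2, a docking protein of the PI3 kinase route, had 46.8 and 47.5 CPM in the aged-SP uteri and 29.7, 26.3 and 31.6 CPM in the young-SP uteri. The groups were well apart for a change of 0.69 ± 0.11 (adjusted p = 0.0766, edgeR). Plcg1 (0.41, adjusted p = 0.186) and Pik3ca (0.28, adjusted p = 0.196), a phospholipase and a catalytic subunit of PI3 kinase, followed with smaller log2 fold changes.

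Of the 16 genes known to respond to EGF signals in many cells, 14 had a positive and 2 a negative log2 fold change, with a median of 0.43. Over all 17013 tested genes, 8663 had a positive one. At an unadjusted p under 0.05, 2 of the 16 were higher, against 9.62% of all tested genes. Ier3, an immediate early gene, had 59.5 and 38.4 CPM in the aged-SP uteri and 19.4, 8.80 and 13.1 CPM in the young-SP uteri. Every aged-SP uterus was above every young-SP uterus (log2 fold change 1.83 ± 0.36, adjusted p = 0.0986, edgeR), and the adjusted p was 0.0328 by edgeR without young-SP replicate 1, in a range of 9.75e-05 (DESeq2) to 0.329 over the alternatives. Phlda1 (0.62, adjusted p = 0.241) and Jun (0.60, adjusted p = 0.280) came next by unadjusted p in the edgeR fit. Many signals other than EGF are known to move these genes.

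**Figure D5:**
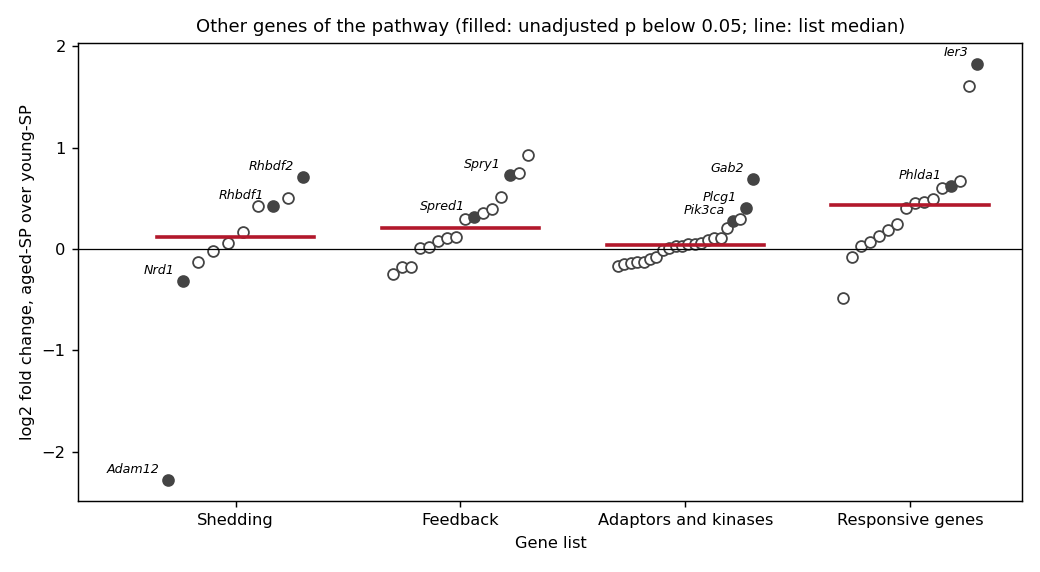
Log2 fold change of the aged-SP over the young-SP group (edgeR) for the genes of 4 pathway lists; each point is a gene, filled where the unadjusted p was under 0.05, and the red line is the list median. The medians are 0.11, 0.21, 0.04 and 0.43 from left to right, and Adam12 lies lowest at -2.28.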

How the data were processed

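RNA of whole uterus from 5 females, 2 of the aged-SP and 3 of the young-SP group, was analysed, with the group of each library taken from its label. The authors filtered the reads and aligned them with HISAT2 2.1.0. The submitters' processing notes also name Bowtie2 2.2.3 and HTSeq 0.6.0. The authors deposited the read count of each gene in each library without normalization. The FPKM values deposited beside them equal the counts over gene length and library total, which was checked (largest relative deviation 6.46e-09), and they served only to compare levels between genes. The deposited table also holds the authors' DESeq2 comparison, whose values were not used. The genome build is not given in the sources used here, and 26998 of the 28666 deposited positions equal those of GENCODE M21 on GRCm38.

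The members and the gene lists were chosen with earlier results of these data known. Counts were compared with edgeR 4.0.16 in R 4.3.3 (filterByExpr, TMM factors of 0.990 to 1.02, glmQLFit and glmQLFTest, two-sided) over 17013 genes, with Benjamini-Hochberg adjustment over all of them. Calls needed an adjusted p under 0.05 together with a log2 fold change beyond 1 in either direction. CPM are library-scaled counts after TMM, and intervals are 95%. A count of 3 per library was taken as the floor. The scripts were tested on simulated data. Alternatives were DESeq2 1.42.0, limma-voom 3.58.1, other scalings and filters, a replicate block, the adjusted p alone and leaving out each library. Tables were made with Python 3.11.15, pandas and numpy. Named genes are the 10 members, the 3 pathway genes of each list with the lowest unadjusted p, the most abundant gene of each marker list and the 3 genes most like the member of widest range. Erbb3 lies outside that rule and was named with the other listed family genes. Adam10, Adam17, Nrd1, Ptgs2, Pdgfrb, Dcn, Ovgp1, Prss28, Foxa2, Cxcl15, Spink1 and Ttr were named after their values had been seen. A young-SP library that the study set aside was not analysed here. The study's methods state triplicate biological replicates for each experiment. Removing a young-SP library from such groups would not give the labelled 2 aged-SP and 3 young-SP libraries. The study does not explain this difference, and the groups here follow the labels. The labels do not say whether libraries come from separate matings, so p-values measure the spread between these samples.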

Additional observations from a re-analysis of the deposited data

How the results depend on the processing

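Over 93 refits of single members under the alternatives, no log2 fold change changed sign and 91 kept their side of the threshold. Both exceptions were Areg, called by DESeq2 (-5.73) and without young-SP replicate 1. The count of called members was 0 with edgeR, 1 with DESeq2, and 0 to 1 when each library was left out. The Areg change ranged from -7.70 to -4.59 in the 3 such fits that kept the gene. Genes called over the whole table numbered 25 with edgeR, 632 with DESeq2, 203 with no filter on low counts, and 1 (without aged-SP replicate 1) to 578 (without young-SP replicate 1) when a library was left out. Leaving out aged-SP replicate 4 gave 49, young-SP replicate 2 gave 3 and young-SP replicate 4 gave 2. Other pathway genes called were 0 with edgeR, 4 with DESeq2, 2 with no filter (Adam12 and Ier3), and 0 to 4 when a library was left out, with Adam12, Ier3, Nrg4 and Ptgs2 called without young-SP replicate 1. The cause was not tested. For Ptgs2 the log2 fold change was 1.61 (adjusted p = 0.314, edgeR) with all 5 libraries. It was 2.73 (adjusted p = 0.0244, edgeR) without young-SP replicate 1. With the replicate block 2 genes were called over the table and 0 members. Replicate numbers 1 and 4 occur in both groups, and the deviations of same-numbered uteri from their group means correlated at 0.152 and 0.136. With 2 aged-SP uteri these deviations mirror each other, so the crossed pairs gave -0.152 and -0.136 by construction. The values cannot decide on a pairing, and with 2 pairs and no label saying so the numbers were not taken as one. The non-overlap count without young-SP replicate 1 was added after seeing the data. Depth limits Areg, Egf, Ereg and Epgn most, with at most 46 reads in any library, and groups of 2 and 3 uteri left wide intervals for all members.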
